A study of Homo sapiens with 10 samples.

Results

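The transcripts described here come from 8 genes of cell shape and membrane traffic, among 21174 genes in the deposited table: ENAH, VASP, EVL, MAP2, MAP4, PLEKHA7, PHLDB2 and MVB12B. The first set of 5 (ENAH, MAP2, PLEKHA7, PHLDB2 and MVB12B) was chosen from these same libraries, because these genes were near silent in CREBBP+/+ clones and present in some CREBBP+/- clones. Their levels by genotype are therefore a description, without a test. The other 3 genes are relatives of ENAH (VASP and EVL) and of MAP2 (MAP4), added as references that lymphoid cells express. Of the 8 genes, 7 passed the filter on low counts, and PHLDB2 did not.

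In the GRCh38 annotation ENAH (ENSG00000154380) spans chr1:225486765-225653142 on the minus strand, VASP (ENSG00000125753) chr19:45506579-45526989 on the plus strand, and EVL (ENSG00000196405) chr14:99971449-100144236 on the plus strand. MAP2 (ENSG00000078018) spans chr2:209424047-209734147 on the plus strand and MAP4 (ENSG00000047849) chr3:47850690-48089272 on the minus strand. PLEKHA7 (ENSG00000166689) spans chr11:16777297-17014415 on the minus strand, PHLDB2 (ENSG00000144824) chr3:111732497-111976517 on the plus strand, and MVB12B (ENSG00000196814) chr9:126326829-126507041 on the plus strand. The counts are over whole genes, so exons and transcript isoforms are not told apart.

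RNA was sequenced from clones of U2932, a human line derived from diffuse large B cell lymphoma, and every clone was grown in RPMI with 20% heat-inactivated serum. There were 5 libraries with the CREBBP status CREBBP+/+ (WT_1 to WT_5) and 5 with CREBBP+/- (Het_6 to Het_10, as the columns are named). CREBBP is a histone acetyltransferase and transcriptional coactivator, and the design asks which transcripts differ between clones with both copies and clones with a changed copy. How that copy was changed, and whether clones were cultured separately, is not stated in the labels. The p-values below therefore rest only on how far these 10 libraries spread.

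ENAH (also called Mena), VASP and EVL form the Ena/VASP family, which sits at the growing ends of actin filaments, slows their capping and brings in profilin-bound actin. Lymphocytes normally rely on VASP and EVL, while ENAH is best known from neurons, epithelia and invasive carcinoma. MAP2 and MAP4 bind along microtubules and stabilise them, MAP2 mainly in neuronal dendrites and MAP4 in most cell types. PLEKHA7 is a protein of epithelial adherens junctions that links cadherin complexes to microtubules, PHLDB2 (LL5beta) anchors microtubule ends at the cell cortex, and MVB12B is a subunit of ESCRT-I, which sorts ubiquitinated cargo in endosomes.

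Promoter windows show how differently the near-silent genes begin, so 3 of them are printed here. Each is the 250 bases upstream of a RefSeq transcript start (GRCh38.p14), 5′ to 3′ on the gene's strand, with CG dinucleotides in capitals. The ENAH window lies at chr1:225653124-225653373 (minus strand), that of MVB12B at chr9:126326579-126326828 (plus strand), and the MAP2 window, which lies within the gene, at chr2:209579357-209579606 (plus strand).
ENAH: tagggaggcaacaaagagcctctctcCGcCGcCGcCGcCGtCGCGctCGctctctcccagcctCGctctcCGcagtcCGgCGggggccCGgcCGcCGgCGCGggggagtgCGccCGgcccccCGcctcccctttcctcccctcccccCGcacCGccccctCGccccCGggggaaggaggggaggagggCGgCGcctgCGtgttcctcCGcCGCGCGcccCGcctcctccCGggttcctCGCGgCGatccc
MVB12B: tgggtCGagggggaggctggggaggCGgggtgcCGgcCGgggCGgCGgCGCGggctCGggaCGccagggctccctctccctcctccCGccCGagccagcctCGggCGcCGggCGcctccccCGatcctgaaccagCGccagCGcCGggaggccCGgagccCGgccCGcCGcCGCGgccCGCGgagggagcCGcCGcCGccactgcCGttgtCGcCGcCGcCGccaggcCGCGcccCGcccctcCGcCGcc
MAP2: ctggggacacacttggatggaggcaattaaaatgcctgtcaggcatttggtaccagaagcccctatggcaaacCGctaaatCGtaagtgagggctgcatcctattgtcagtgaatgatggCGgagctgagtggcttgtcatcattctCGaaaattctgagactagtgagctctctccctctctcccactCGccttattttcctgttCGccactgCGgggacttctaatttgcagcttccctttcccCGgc

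The ENAH window was 80.0% G and C with 36 CG dinucleotides, and the MVB12B window 85.2% with 41. Across all 35116 windows the medians were 58% and 11, which places ENAH at the 95.6 percentile and MVB12B at the 98.4 percentile of the CG count. The printed MAP2 window held 8 CG dinucleotides (44.8 percentile), and the other MAP2 windows held 6 and 4. PHLDB2 had windows of both kinds, with 27 CG dinucleotides in the richest and 1 in the poorest. RefSeq windows were found for 7 of the 8 genes, and PLEKHA7 had no entry. None of the 14 windows of these genes held the AP-1 motif TGANTCA or the CRE motif TGACGTCA on either strand (both motifs are palindromes and do not overlap each other), which occur in 6.57% and 1.65% of all windows. The absence covers only these letters in these 250 bases.

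Total counts ran from 10615977 in Het_9, the shallowest library, to 23020694 in Het_6. CREBBP, the gene that defines the groups, stood at 103 to 136 CPM (counts per 1000000, scaled with TMM factors) with both copies and at 56.8 to 80.7 CPM in the CREBBP+/- group, without overlap. Of the 11961 genes that passed the filter on low counts, 0.594% separated in this direction. Clustering without these 8 genes was cut at 3 clusters. It put Het_8 with WT_1 and WT_2, Het_6 and Het_7 with WT_3, WT_4 and WT_5, and Het_9 with Het_10 alone. At this cut the last pair has no CREBBP+/+ library beside it. The 5 B cell markers MS4A1, CD79A, CD79B, PAX5 and CD22 were all present, summing to 1863 to 3355 CPM in the CREBBP+/+ group and 1987 to 3379 CPM in the other.

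ENAH was near silent in 7 of 10 libraries and present in 3. It had 0.431, 0.709, 0.316, 0.385 and 0.417 CPM in WT_1 to WT_5, each from 7 to 13 reads. In the CREBBP+/- group it had 0.597 CPM in Het_6, 0.675 CPM in Het_7, 11.4 CPM in Het_8, 23.3 CPM in Het_9 and 27.9 CPM in Het_10. Het_6 and Het_7 lay inside the CREBBP+/+ range, and Het_8, Het_9 and Het_10 stood far above it, so the genotype groups overlapped. Counting error does not bridge that gap. The exact (Clopper-Pearson) 95% binomial interval of the highest CREBBP+/+ library, WT_2, was 0.377 to 1.21 CPM, and that of Het_8 was 9.88 to 13.0 CPM; such intervals cover counting error only. Het_8 stood 20.0-fold above the mean of WT_1 and WT_2, the libraries it clusters with. Het_6 and Het_7 had 1.71 times the mean of WT_3, WT_4 and WT_5. A low level in bulk RNA can come from few cells or from little RNA per cell, and these cannot be told apart.

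**Figure D1:**
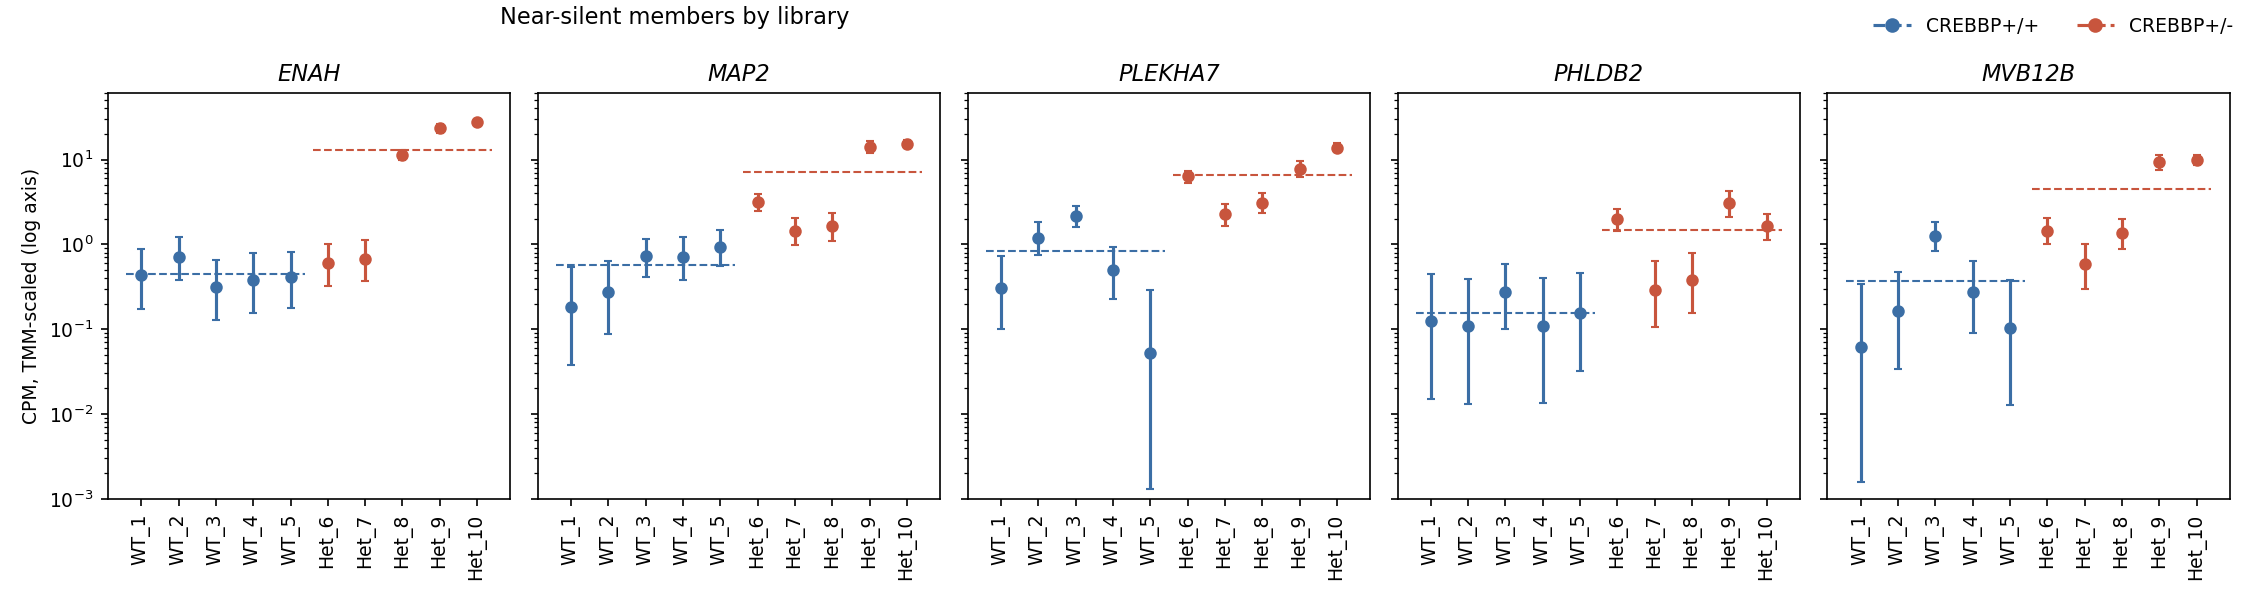
Level of each near-silent gene in each library (CPM on a log axis; points with exact 95% binomial intervals, dashed lines at group means; blue CREBBP+/+, red CREBBP+/-). ENAH reaches 11.4, 23.3 and 27.9 CPM in the last 3 libraries and stays under 1 CPM elsewhere, while MAP2 and MVB12B are highest in Het_9 and Het_10.

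MAP2 was low in CREBBP+/+ libraries, intermediate in Het_6, Het_7 and Het_8 and highest in Het_9 and Het_10. The CREBBP+/+ values were 0.185, 0.273, 0.721, 0.714 and 0.937 CPM in WT_1 to WT_5. The CREBBP+/- values were 3.16, 1.45, 1.63, 14.0 and 15.3 CPM in Het_6 to Het_10. All 5 CREBBP+/- libraries lay above all CREBBP+/+ libraries, a separation that 0.426% of the 11961 genes tested showed in the same direction; nothing is read from it, since the gene was picked on this contrast. The separation was narrow in places, as the interval of Het_7 (0.976 to 2.07 CPM) overlapped that of WT_5 (0.556 to 1.48 CPM). Without Het_9 and Het_10 the CREBBP+/- mean was 2.08 ± 0.938 CPM (SD, n = 3), 3.67 times the CREBBP+/+ mean.

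PLEKHA7 ranged widely within the CREBBP+/+ group. It had 0.308, 1.20, 2.16, 0.494 and 0.0521 CPM in WT_1 to WT_5, the last from 1 read and WT_3 from 48. In Het_6 to Het_10 it had 6.31, 2.27, 3.10, 7.71 and 13.8 CPM. The groups did not overlap (0.426% of the 11961 genes tested separated in this direction), and nothing is read from it. Het_7 and WT_3 were nearly level, with intervals of 1.67 to 3.01 and 1.60 to 2.87 CPM. PLEKHA7 was the gene of the 5 that reached 5 CPM in Het_6, where its interval (5.34 to 7.42 CPM) overlapped that of Het_9 (6.15 to 9.55 CPM).

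PHLDB2 stayed low everywhere. It had 2 to 6 reads in each CREBBP+/+ library, or 0.123, 0.109, 0.270, 0.110 and 0.156 CPM in WT_1 to WT_5. In Het_6 to Het_10 it had 1.96, 0.289, 0.381, 3.03 and 1.63 CPM. Het_6, Het_9 and Het_10 stood apart from the rest. The groups did not overlap, but Het_7 and WT_3, with 6 reads each, were level within counting error. The share of 0.426% covers only genes past the filter, so it is no background for PHLDB2. PHLDB2 overlaps PLCXD2 on the same strand, and PLCXD2 had at most 40 reads in a library, so the assignment of reads between them is uncertain.

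MVB12B resembled MAP2. It had 0.0616, 0.164, 1.26, 0.275 and 0.104 CPM in WT_1 to WT_5, and 1.45, 0.579, 1.36, 9.27 and 9.96 CPM in Het_6 to Het_10. Het_9 and Het_10 stood apart, Het_7 lay below WT_3, and Het_6 and Het_8 were within counting error of WT_3. Without Het_9 and Het_10 the CREBBP+/- mean was 1.13 ± 0.480 CPM (SD, n = 3), against 0.373 ± 0.503 CPM in CREBBP+/+ libraries (SD, n = 5).

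The 5 genes differed in which libraries held their high levels. In Het_8 all 5 genes stood above the mean of WT_1 and WT_2, ENAH 20.0-fold, MVB12B 12.1-fold, MAP2 7.14-fold, PLEKHA7 4.12-fold and PHLDB2 3.28-fold. The ratios rest on few reads in WT_1 and WT_2: 1 and 3 for MVB12B, 3 and 5 for MAP2, 2 and 2 for PHLDB2. For PHLDB2 the intervals of Het_8 (0.153 to 0.785 CPM) and WT_1 (0.0149 to 0.445 CPM) overlapped. Of these ENAH alone reached 5 CPM there, while PLEKHA7, MAP2, MVB12B and PHLDB2 stood at 3.10, 1.63, 1.36 and 0.381 CPM, the last from 7 reads. Het_6, in which ENAH was near silent, had 2.18, 2.79, 6.78 and 2.51 times the level of its cluster mate Het_7 for MAP2, PLEKHA7, PHLDB2 and MVB12B, and 0.885 times for ENAH. The intervals of Het_6 and Het_7 did not overlap for MAP2, PLEKHA7 and PHLDB2, and overlapped for MVB12B and ENAH. Het_9 and Het_10, which cluster together, were within 1.20-fold of each other for ENAH, MAP2 and MVB12B. They differed for PLEKHA7 (Het_10 at 1.79 times Het_9) and PHLDB2 (0.538 times).

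Group means with and without that pair of libraries show how much rests on it. The ENAH mean was 0.451 ± 0.151 CPM with CREBBP intact and 12.8 ± 12.6 CPM in the CREBBP+/- group (SD, n = 5 each), and 4.22 ± 6.20 CPM in Het_6, Het_7 and Het_8. PLEKHA7 averaged 0.844 ± 0.852 and 6.64 ± 4.60 CPM (SD, n = 5 each), and 3.89 ± 2.14 CPM in those 3 libraries. PHLDB2 averaged 0.154 ± 0.0680 and 1.46 ± 1.15 CPM (SD, n = 5 each), and 0.878 ± 0.941 CPM in the 3. In the CREBBP+/- group the SD of ENAH, MAP2 and MVB12B was close to the mean.

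In the fit over all genes with edgeR's quasi-likelihood test, 0 of 11961 genes passed a Benjamini-Hochberg adjusted p of 0.05 (0%), none of these 8 among them. CREBBP, the gene that defines the groups, did not pass either (log2 fold change -0.73, SE 0.12, edgeR adjusted p = 0.395). Its DESeq2 adjusted p was 8.68e-05. Failing the edgeR test therefore does not show that a gene is unchanged. Without adjustment 596 genes (4.98%) had a p under 0.05, and limma-voom also called 0 (549 without adjustment). The edgeR log2 fold changes (CREBBP+/- over CREBBP+/+) were 4.80 (SE 1.06) for ENAH, 3.62 (SE 0.80) for MAP2, 3.52 (SE 1.01) for MVB12B and 2.95 (SE 0.78) for PLEKHA7. DESeq2 called 32 of 11958 genes (0.268%), 12 of them higher (0.100%), and ENAH, MAP2, PLEKHA7 and MVB12B were among the 12. PHLDB2 entered when DESeq2 used its own filter, an alternative added after the data were seen (33 of 15587 genes, 0.212%, 13 of them higher, 0.0834%). These are the values from which the 5 genes were picked, and they support nothing further. MVB12B was the closest of them to the threshold, with a DESeq2 adjusted p of 0.0473 in the first fit and 0.0496 in the second.

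The paralogs were expressed in every library and did not pass the test. VASP had 41.9, 39.0, 55.1, 71.1 and 64.1 CPM in WT_1 to WT_5 and 44.2, 43.9, 28.6, 61.3 and 70.1 CPM in Het_6 to Het_10. The groups overlapped widely, with Het_8 lowest of all. The edgeR log2 fold change was -0.13 (SE 0.25, 95% interval -0.68 to 0.42, adjusted p = 0.988). It changed sign without Het_8 (0.02) and was -0.48 without Het_9 and Het_10, so no direction is given for VASP.

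EVL was the most variable of the paralogs, and DEGS2 on its opposite strand had at most 14 reads. It had 84.6, 63.9, 29.9, 42.6 and 36.0 CPM in WT_1 to WT_5 and 16.0, 12.4, 54.4, 34.4 and 33.0 CPM in Het_6 to Het_10. Het_6 and Het_7 lay below every CREBBP+/+ library, at 0.393 times the mean of WT_3, WT_4 and WT_5. Het_8, Het_9 and Het_10 lay within the CREBBP+/+ range. WT_1, WT_2 and Het_8, which cluster together, were the 3 highest. The edgeR log2 fold change of -0.77 (SE 0.42, 95% interval -1.69 to 0.14, adjusted p = 0.986) did not pass, and leaving out 1 library gave -1.10 to -0.52.

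MAP4 was the steadiest of the 3. It had 184, 173, 218, 266 and 239 CPM in WT_1 to WT_5 and 223, 224, 186, 173 and 199 CPM in Het_6 to Het_10. WT_2 and Het_9 were level at the lower end, and WT_4 was the highest. The edgeR log2 fold change was -0.10 (SE 0.13, 95% interval -0.39 to 0.19, adjusted p = 0.988), and it stayed below 0 when any 1 library was left out (-0.17 to -0.02).

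**Figure D2:**
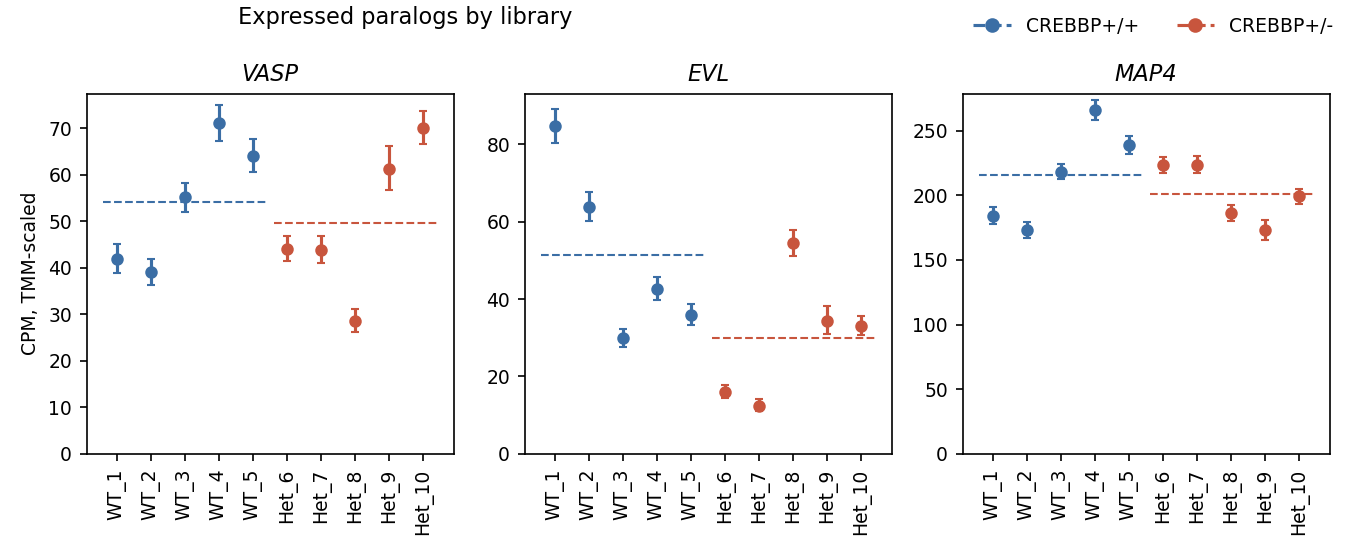
Level of VASP, EVL and MAP4 in each library (CPM on linear axes from 0; points with exact 95% binomial intervals, dashed lines at group means). The groups overlap for all 3 genes, and EVL is lowest in Het_6 and Het_7 at 16.0 and 12.4 CPM.

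Levels of different genes were compared per length, as RPKM over the union of annotated exons (CPM per kilobase). In CREBBP+/+ libraries VASP (15.3 ± 3.90 RPKM) and MAP4 (14.4 ± 2.55 RPKM) led with overlapping ranges, followed without overlap by EVL (4.90 ± 2.15 RPKM; SD, n = 5 each). The near-silent genes came next without overlap, at 0.0762 RPKM for PLEKHA7, 0.0478 for MAP2, 0.0472 for MVB12B, 0.0297 for ENAH and 0.0125 for PHLDB2, and each overlapped the next in range. In CREBBP+/- libraries the first 3 kept their order (means of 14.0, 13.4 and 2.87 RPKM, over ranges of 8.08 to 19.8, 11.5 to 14.9 and 1.19 to 5.19 RPKM). ENAH followed at 0.840 ± 0.829 RPKM, and its range, up to 1.83 RPKM in Het_10, reached that of EVL, down to 1.19 RPKM in Het_7. MAP2 and PLEKHA7 (0.600 RPKM each), MVB12B (0.572) and PHLDB2 (0.118) came last, each overlapping its neighbour in the order. The order depends on the length used. Over the longest annotated transcript PLEKHA7 (1.20 RPKM) stood above ENAH (0.970), MVB12B (0.935) and MAP2 (0.710) in the CREBBP+/- group. ENAH, at most 2.12 RPKM, then no longer met EVL, at least 3.36 RPKM. In the CREBBP+/+ group the ranges of MAP4 and EVL (13.9 ± 6.09 RPKM; SD, n = 5) then overlapped.

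Within the Ena/VASP family, ENAH made up 0.105 to 0.272% of the summed RPKM in CREBBP+/+ libraries, 0.280 and 0.326% in Het_6 and Het_7, and 5.34, 6.93 and 7.40% in Het_8, Het_9 and Het_10. ENAH thus remained the minor member where it was present, with VASP at 57.6, 78.2 and 79.9% of the family there. The family sum was 17.2 to 24.1 RPKM in CREBBP+/+ libraries. It was lower in Het_6, Het_7 and Het_8 (14.0, 13.6 and 14.0 RPKM) and 22.1 and 24.8 RPKM in Het_9 and Het_10. MAP2 made up 0.127 to 0.495% of MAP2 and MAP4 in CREBBP+/+ libraries, 0.812 to 1.76% in Het_6, Het_7 and Het_8, and 9.31 and 8.85% in Het_9 and Het_10. With the longest annotated transcript as the length, ENAH made up 3.05, 4.61 and 5.00% of its family in Het_8, Het_9 and Het_10. EVL was then the largest member in Het_8 (51.8%, VASP 45.1%) and in WT_1 (55.0%, VASP 44.9%).

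**Figure D3:**
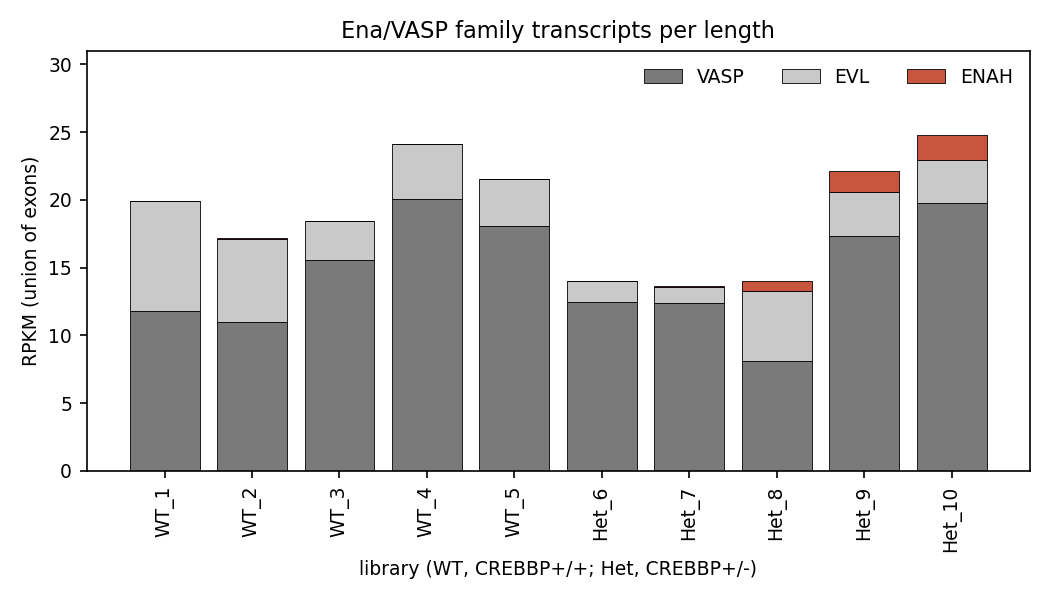
Summed level of the Ena/VASP family in each library (stacked bars, RPKM over the union of exons, from 0). At this length VASP is the largest part of every bar (over the longest transcript EVL is in WT_1 and Het_8), and ENAH is visible in Het_8, Het_9 and Het_10, where it is 5.34 to 7.40% of the sum.

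Other genes were also off in some libraries and on in others. Of 21174 genes, 415 (1.96%) were under 1 CPM in the lowest library and at 5 CPM or more in the highest (194 with 10 CPM as the upper limit), and ENAH, MAP2, PLEKHA7 and MVB12B were among them. PHLDB2, at most 3.03 CPM, was not. The most frequent sets of libraries at 5 CPM or more were WT_1, WT_2 and Het_8 (43 genes), WT_3 to WT_5 with Het_6, Het_7, Het_9 and Het_10 (27 genes), Het_8 alone (26 genes) and Het_9 with Het_10 (25 genes, MAP2 and MVB12B among them). ENAH shared its set of Het_8, Het_9 and Het_10 with 5 genes in all, itself included, and PLEKHA7 was the 1 gene with Het_6, Het_9 and Het_10.

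Fewer genes were off throughout one genotype. There were 11 genes (0.0520%) under 1 CPM in every CREBBP+/+ library and at 5 CPM or more in a CREBBP+/- library, ENAH and MAP2 among them, and 3 genes (0.0142%) with the reverse pattern. PLEKHA7 and MVB12B were not among the 11, because WT_2 and WT_3 exceeded 1 CPM for PLEKHA7 and WT_3 did for MVB12B. Of the 11 genes, 6 were at 5 CPM or more in both Het_9 and Het_10, and 3 were in Het_8.

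Most protein-coding genes beside the near-silent genes were either silent or expressed throughout. Of 20 neighbours, the 2 nearest on each side in the GENCODE annotation, 7 were under 1 CPM in every library and 11 were at 5 CPM or more in every library. None was under 1 CPM in all CREBBP+/+ libraries and at 5 CPM or more in Het_9 and Het_10, a pattern that ENAH and MAP2 have and PLEKHA7, PHLDB2 and MVB12B do not. Only 6 of all 21174 genes have that pattern, so its absence among 20 neighbours says little about them. edgeR called 0 of the 13 neighbours that were tested. LBR, which encodes the lamin B receptor and lies 57.8 kb from ENAH, ran from 282 to 387 CPM with CREBBP intact and from 313 to 344 CPM in the CREBBP+/- group. SRP9, a subunit of the signal recognition particle 125 kb on the other side, had 173 to 231 and 197 to 250 CPM.

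Among the tested neighbours EPHX1, which encodes microsomal epoxide hydrolase 157 kb from ENAH, had the highest log2 fold change (1.65, SE 0.43, edgeR adjusted p = 0.842). Its levels were 0.659 to 1.89 CPM in CREBBP+/+ libraries and 3.16, 1.83, 1.42, 4.77 and 3.86 CPM in Het_6 to Het_10, so Het_6, where ENAH was near silent, exceeded Het_8. ABHD10, a mitochondrial thioesterase gene 2.49 kb from PHLDB2, ran from 29.2 to 39.3 CPM with CREBBP intact and from 40.9 to 50.8 CPM in the CREBBP+/- group, without overlap (0.426% of tested genes separated this way), as its neighbour PHLDB2 was (log2 fold change 0.34, SE 0.11, edgeR adjusted p = 0.899). PIK3C2A, a lipid kinase gene near PLEKHA7, was above the CREBBP+/+ maximum of 57.1 CPM in 4 of 5 CREBBP+/- libraries (log2 fold change 0.48, SE 0.21, edgeR adjusted p = 0.977). The genes nearest to MAP2 on each side, PTH2R and UNC80, had at most 0.0918 CPM in any library.

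**Figure D4:**
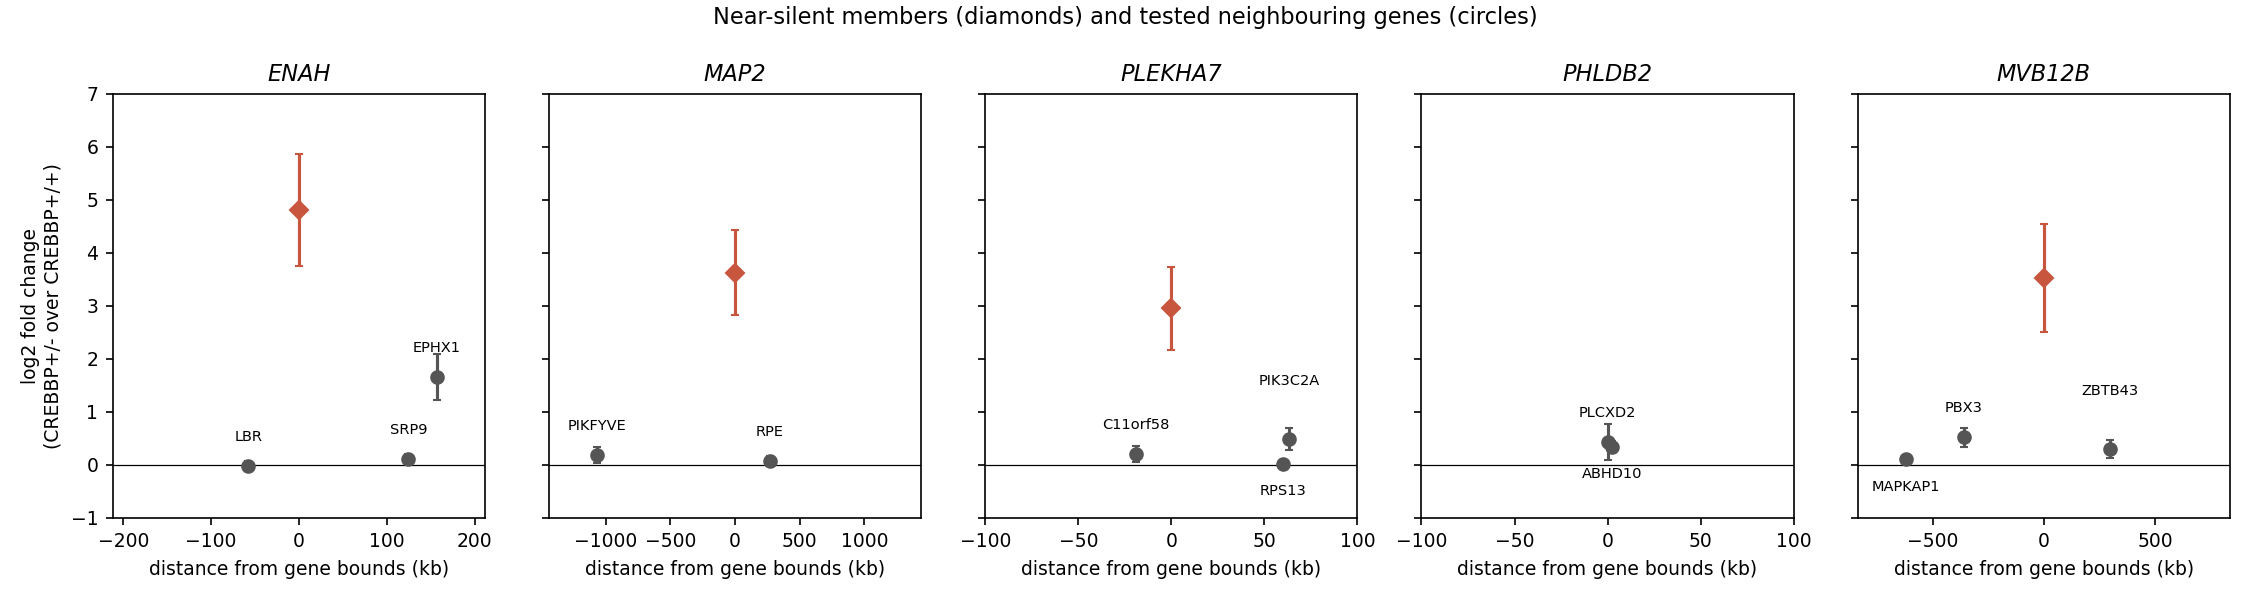
edgeR log2 fold change (CREBBP+/- over CREBBP+/+, bars show the SE) of near-silent genes, as diamonds at 0 kb, and of the 13 tested neighbours, as circles at their distance in kb. PHLDB2 was below the filter and has no diamond; the neighbours run from -0.03 to 1.65, below the 2.95 to 4.80 of the 4 near-silent genes shown.

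Partners of these proteins were followed in 6 lists, and no member of any list was called by edgeR or by DESeq2. Of 13 Ena/VASP partners, 12 were tested, 6 with a point estimate above 0 and 6 below (median log2 fold change 0.05, against -0.01 over all genes tested). ZYX, which encodes the focal adhesion protein zyxin that recruits Ena/VASP proteins, had 44.8 and 28.5 CPM in Het_9 and Het_10 and 0.729 to 7.31 CPM in the other 8 libraries (log2 fold change 1.99, SE 0.88, edgeR adjusted p = 0.977). Profilins supply actin to the family. PFN1 averaged 1258 ± 155 and 1051 ± 78.1 CPM (SD, n = 5 each; -0.26, SE 0.10), and PFN2 averaged 27.5 ± 10.8 and 42.2 ± 12.6 CPM (SD, n = 5 each; 0.62, SE 0.30), with its highest values, 53.9 and 54.7 CPM, in Het_9 and Het_10. ABI2, a WAVE complex subunit, had 0.18 (SE 0.09).

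Of 26 actin assembly genes, 24 were tested, 8 above 0 and 16 below (median -0.12). TMSB4X, the actin monomer buffer thymosin beta 4, averaged 528 ± 116 and 386 ± 78.1 CPM (SD, n = 5 each; log2 fold change -0.45, SE 0.18). The formin DIAPH3 had 0.45 (SE 0.21), CORO1A, the leukocyte coronin, -0.36 (SE 0.17), and the leukocyte formin FMNL1 -0.50 (SE 0.24). All 4 had an edgeR adjusted p of 0.977.

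Of 22 microtubule genes, 17 were tested, 10 above 0 and 7 below (median 0.07). TUBB3, a tubulin best known from neurons, had 93.1 and 117 CPM in Het_9 and Het_10 and 10.3 to 41.5 CPM in the other 8 libraries (log2 fold change 1.30, SE 0.57, edgeR adjusted p = 0.977). TUBB, the highest of the beta tubulin genes on this list, averaged 2378 ± 86.4 and 2083 ± 129 CPM (SD, n = 5 each), with a log2 fold change of -0.19 (SE 0.08). MAP9 had 0.40 (SE 0.13), and MAP7 had 1.72 (SE 0.82) at means of 0.190 and 0.687 CPM. MAPT, which encodes tau, the remaining close relative of MAP2 and MAP4, was under 1 CPM in every library and was not tested.

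Junction genes included a strongly expressed cadherin. Of 14 adherens junction genes, 10 were tested, 6 above 0 and 4 below (median 0.22). CDH2, which encodes N-cadherin, averaged 571 ± 178 and 748 ± 206 CPM (SD, n = 5 each; log2 fold change 0.39, SE 0.25). CDH1, the epithelial cadherin with which PLEKHA7 is usually found, had at most 0.0902 CPM. CTNNA1 had 0.37 (SE 0.27), CGN 0.43 (SE 0.34) and TJP1 1.28 (SE 0.99), and each edgeR adjusted p was 0.988.

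Of 11 genes of the cortical platform to which PHLDB2 belongs, 10 were tested, 5 on each side of 0 (median -0.01). CLASP1, a microtubule-binding partner of PHLDB2, averaged 46.0 ± 10.3 and 43.9 ± 11.0 CPM (SD, n = 5 each). KIF21A had 0.42 (SE 0.30), PHLDB1, a paralog of PHLDB2, 0.80 (SE 0.66), PPFIBP1 0.59 (SE 0.50) and PPFIA1 0.07 (SE 0.11). All 29 ESCRT genes were tested, 14 above 0 and 15 below (median -0.01). VPS28, an ESCRT-I subunit like MVB12B, averaged 45.5 ± 9.47 and 33.3 ± 2.38 CPM (SD, n = 5 each; log2 fold change -0.45, SE 0.14, edgeR adjusted p = 0.842). MVB12A, the paralog of MVB12B, was expressed in every library, at 24.6 ± 7.89 and 22.1 ± 5.13 CPM (SD, n = 5 each). CHMP5 had 0.36 (SE 0.15), VPS37A 0.30 (SE 0.13) and VPS37B -1.16 (SE 0.55).

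Markers of other cell types were checked because ENAH, MAP2 and PLEKHA7 are known from neurons and epithelia. Of 8 neural markers, 2 reached 1 CPM in a library, and their sum was 5.97 and 4.75 CPM in Het_9 and Het_10 against 0.0427 to 0.980 CPM elsewhere, with SNAP25 at 0 in all libraries. Of 6 fibroblast markers, 2 reached 1 CPM, with sums of 2.66 and 2.09 CPM in Het_9 and Het_10 and 0.193 to 0.676 CPM elsewhere, and with COL1A2 and COL3A1 at 0. Both sums were highest in the libraries where MAP2 and MVB12B were highest, and their part in the levels above was not tested. In Het_8, where ENAH was present, the fibroblast sum was 0.218 CPM, close to the 0.246 CPM of WT_1, the lowest CREBBP+/+ library. The neural sum there was 0.980 CPM, above every CREBBP+/+ library (0.208 to 0.739 CPM). Sums this low rest on few reads. Of 6 epithelial markers, EPCAM reached 1 CPM and KRT19 was at 0. The sum was 13.9 CPM in Het_8 (EPCAM 13.7 CPM), 26.8 CPM in Het_7 and 1.64 to 24.8 CPM in the CREBBP+/+ group. Its part in the levels above was not tested either. Endothelial, T cell and myeloid sums were at most 0.386, 1.30 and 1.52 CPM.

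Genes with a pattern like that of ENAH were ranked by Pearson's r of log2 CPM over the 10 libraries, as a description, since libraries fall into clusters. The 8 highest, outside the genes described here, were MBNL2 (0.97), EAF1 (0.97), DDX17 (0.95), JUN (0.95), ZNF772 (0.94), PMAIP1 (0.94), SRRM5 (0.94) and SLC24A1 (0.94). MBNL2, a splicing regulator, had 12.3 to 14.2 CPM in the 7 libraries without ENAH and 21.0, 32.5 and 30.6 CPM in Het_8, Het_9 and Het_10. JUN, an AP-1 transcription factor, had 1.54 to 4.34 CPM in those 7 libraries and 18.3, 17.2 and 18.7 CPM in the 3. Pearson's r does not reflect the size of a shift. Apart from JUN (2.01), the 8 genes had edgeR log2 fold changes of 0.21 (EAF1) to 0.74 (MBNL2), against 4.80 for ENAH. The 4 lowest were KIF21B (-0.97), GRN (-0.96), RNH1 (-0.96) and SP140 (-0.96). KIF21B, a kinesin motor that acts on microtubule ends, had 16.5 to 30.3 CPM in the 7 libraries and 7.24, 7.25 and 5.17 CPM in the 3.

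The other genes described here ranked lower by the same measure. Among 11960 genes MVB12B ranked 110 (r = 0.82), MAP2 157 (0.81) and PLEKHA7 538 (0.70). The paralogs EVL (0.07) and VASP (0.03) had values near 0, and MAP4 had -0.54. The high values rest on 3 libraries that are all CREBBP+/- and on the contrast from which ENAH was picked. With Spearman's rho, which ignores the size of the gap, 1 of the 8 genes stayed among the highest 8. Without Het_8 likewise 1 stayed.

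**Figure D5:**
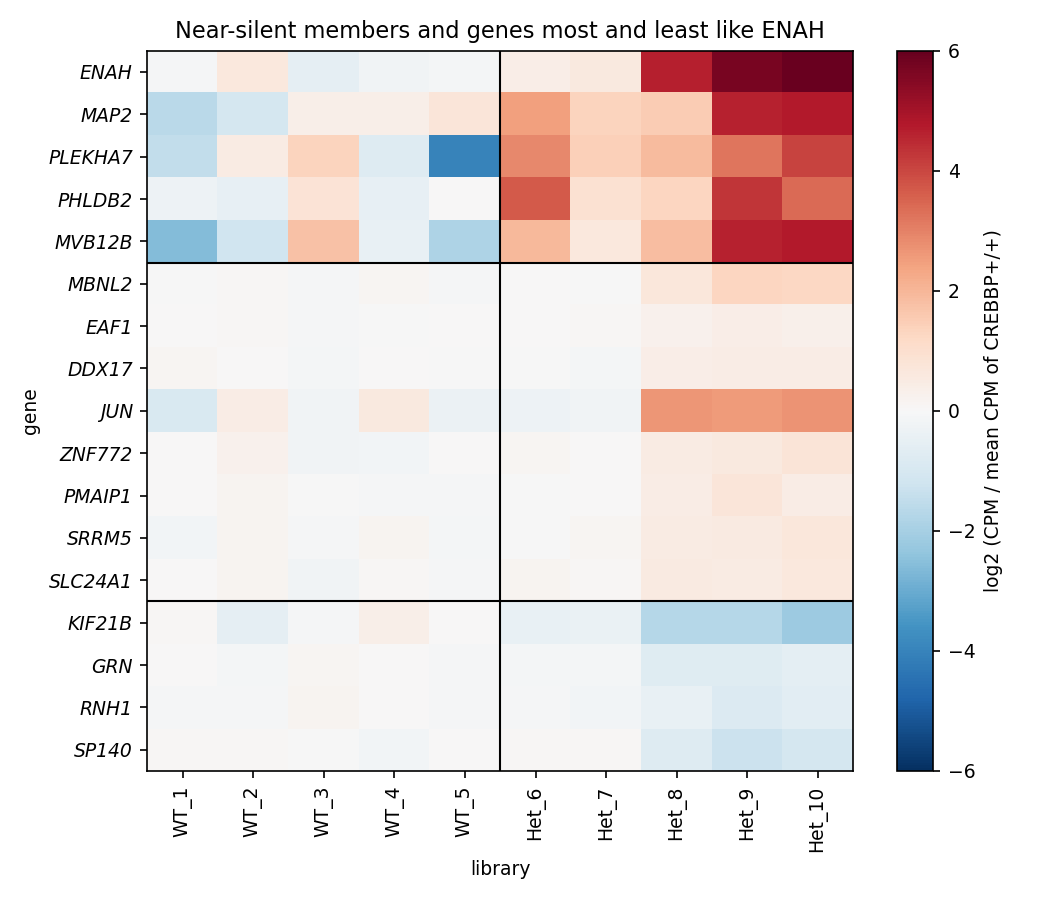
Heat map of log2 ratios of CPM to the CREBBP+/+ mean in 10 libraries, for the 5 near-silent genes, the 8 genes most like ENAH and the 4 least like it. Het_8, Het_9 and Het_10 stand out in the row of ENAH and less in that of JUN. The other like genes shift far less (edgeR log2 fold change 0.21 to 0.74). MAP2 and MVB12B stand out in Het_9 and Het_10.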

How the data were processed

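RNA was measured by sequencing in 10 libraries, 5 per genotype. The values the authors deposited are unnormalised counts of reads for each gene, with values of 10000 or more rounded to 4 significant digits. GRCh38, STAR, featureCounts, FastQC and DESeq2 are named in the submitters' processing notes. Neither annotation nor strand setting is given in the sources used here, so overlapping genes may share reads. Column names link the CREBBP+/- libraries to their group but to no labelled clone. Of 21174 identifiers, 20804 were matched to GENCODE 44 symbols.

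Counts were filtered (filterByExpr, minimum count 10 and total 15, which left 11961 genes), scaled with TMM and tested with edgeR 4.0.16, quasi-likelihood, two-sided, Benjamini-Hochberg, in R 4.3.3. Log2 CPM used a prior count of 2. RPKM used union exon lengths. Alternatives were DESeq2 1.42.0, limma-voom (limma 3.58.1), other scaling factors, other filters and leaving out libraries. The fits were tested on simulated data with known changes. The simulated libraries had the same spread for every gene and no clusters. That check therefore covers the code and not how the fits perform on these libraries. Genes named were all 8 described genes and CREBBP, up to 4 members per list with the smallest edgeR p, the 8 genes most and 4 least like ENAH, and the 2 nearest protein-coding genes on each side of each near-silent gene; genes named beyond this (MAPT, CDH1, CLASP1, MVB12A and those of on and off pattern) were chosen after their values were seen, and 1 marker gene and 1 gene of that pattern are not reported here. The members and lists were chosen with earlier results of these data known. Depth was 10615977 to 23020694 counts per library, so levels under 1 CPM rest on few reads.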

Additional observations from a re-analysis of the deposited data

Results flagged for a closer look

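Dixon's criterion for 5 values was applied to the log2 CPM of named genes in each genotype, to find libraries far from the rest. Among 121 groups of values it marked 9, where chance gives about 1 in 20, and none concerned the 8 genes themselves.

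In the CREBBP+/- group Het_8 was lowest for TMSB4X (7.99, next 8.61), CHMP5 (5.13, next 5.54) and PIKFYVE (5.60, next 6.08). Het_9 was highest for SRP9 (7.97, next 7.67), and for UNC80 (-2.34) it was the library with a read where the others had none. In the CREBBP+/+ group WT_5 was lowest for PPFIBP1 (0.13, next 2.95) and RPS13 (8.86, next 9.01). WT_3 was highest for EPHX1 (1.00, next -0.20), a neighbour of ENAH, and WT_1 was lowest for ZBTB43 (3.36, next 4.03), a neighbour of MVB12B.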

How the results depend on the processing

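The count of genes called by edgeR was 0 and stayed 0 with limma-voom, other scaling factors and other filters. It was 32 with DESeq2 and 33 when DESeq2 used its own filter, an alternative added after the data were seen, and 0 to 1 when 1 library was left out (1 without Het_6). The VASP log2 fold change ran from -0.28 to 0.02 leaving out 1 library, the last (0.0155) without Het_8, and was -0.48 without Het_9 and Het_10, and EVL and MAP4 kept their sign in every fit. All 6 lists stayed at 0 called genes in every fit. ENAH fell below the filter of 1 CPM in 5 libraries and was fitted in 18 settings, that without Het_9 and Het_10 among them. Its log2 fold change ran from 3.21 to 5.12 over these settings, on the contrast from which it was picked. The count of on and off genes, 415, was 194 with 10 CPM as the upper limit. With that limit 5 genes were off in every CREBBP+/+ library and 0 in every CREBBP+/- library, and with 0.5 CPM as the lower limit 6 and 1. Of the 8 genes most like ENAH, 1 was shared with Spearman's rho and 1 to 7 when 1 library was left out (1 without Het_8, 4 without WT_1 or Het_7, and 5 without WT_5, Het_6 or Het_10). Genes at an unadjusted edgeR p under 0.05 numbered 596, and 1124 without Het_8, 327 without Het_9 and 341 without both Het_9 and Het_10. The cause of these shifts was not tested. With the longest transcript as length the order of genes changed, and the mean RPKM of EVL in CREBBP+/+ libraries went from 4.90 to 13.9. No paired analysis was possible because the CREBBP+/- columns carry numbers (6 to 10) that no labelled clone has. Depth limits the near-silent genes most, since a few reads set their CREBBP+/+ levels.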

Other observations

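Among the genes with the same set of libraries at 5 CPM or more as ENAH (Het_8, Het_9 and Het_10) were KIF5C, COBL and PCLO; they were chosen after their values were seen. COBL, an actin nucleator, had 6.04, 10.4 and 13.7 CPM in these 3 libraries and 0.156 to 2.14 CPM in the other 7. KIF5C, a kinesin heavy chain of neurons, had 16.8, 6.15 and 5.96 CPM there and 0.990 to 3.71 CPM elsewhere, so that Het_8 was the highest. PCLO, a presynaptic scaffold protein, had 10.7, 9.46 and 8.19 CPM, with 4.63 CPM in WT_2 as the highest of the rest.

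Of the 11 genes off in every CREBBP+/+ library, DACT1, an inhibitor of Wnt signalling, had 17.1 and 15.9 CPM in Het_9 and Het_10 and at most 0.981 CPM elsewhere. DMRT1, a transcription factor of the gonad, had 12.3 and 25.1 CPM there and at most 0.631 CPM elsewhere. RIMS2, a presynaptic protein, had 7.99 and 6.19 CPM there and at most 0.218 CPM elsewhere. FRAS1, an extracellular matrix protein, and PTPRD, a receptor phosphatase, were instead present in Het_8, at 9.36 and 5.66 CPM. The reverse pattern was seen for TBC1D8, CAMK2B and ADGRE5, which reached 7.58 CPM in WT_4, 7.17 CPM in WT_3 and 6.09 CPM in WT_3.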
